A study of Homo sapiens with 33 samples.

Results

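Promoters at which histone H3 was acetylated and trimethylated on lysine 4 but carried little trimethylation of lysine 27 were examined in H9 human embryonic stem cells (ESCs) with and without EZH2. The promoters were chosen by values of EZH2+/+ ESCs. For each gene name on chromosomes 1 to 22, the 5 kb window around an annotated start site with the most H3K27ac was taken, and it was kept where H3K27ac and H3K4me3 exceeded 2.42 log2 RPM (reads scaled to the size of the library), H3K27me3 was under 1 and input chromatin was under 2.42. This left 28 of 34448 promoters. These fall into 21 separate loci on 12 chromosomes, because 13 of the 28 windows overlap that of another member in 6 loci, 1 of which holds 3 members. H3K27ac set the size of the group, since 71 promoters passed its limit, and of these 40 also passed the limit on H3K4me3. Because these columns chose the promoters, their levels in EZH2+/+ ESCs are a description only.

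The study compared 4 genotypes of H9, an established human ESC line. They were the parental EZH2+/+ (WT), EZH2-/+ (1 allele targeted with CRISPR/Cas9), EZH2-/- and EZH2-/- with a doxycycline-inducible EZH2 transgene kept on (EZH2-/-+EZH2). The targeted lines were grown from picked clones. The transgene was placed in the EZH2-/+ line before the remaining allele was targeted, and in EZH2-/- ESCs it was off or had been excised (the labels do not say which). ESCs were grown on mouse feeder cells and sorted for the surface antigen SSEA4. RNA-seq has 3 libraries for each genotype, with 16587860 to 36589087 reads on genes, whereas each ChIP-seq column for H3K27ac, H3K4me3, H3K4me1, H3K27me3 or input is taken as the mean of 2 libraries (the labels list 2, the study's text gives 3), and EZH2 was profiled in EZH2+/+ ESCs in 1 library. ChIP-seq differences between genotypes therefore have no test.

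H3K27ac, the acetylated form of lysine 27 of histone H3, is placed by p300/CBP acetyltransferases at active promoters and enhancers. EZH2, the catalytic subunit of PRC2, methylates the same residue, so that 1 histone tail cannot hold both marks. H3K4me3 marks start sites and is richest over CpG-dense promoters, and H3K4me1 is enriched on their flanks and at enhancers.

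In EZH2-/- ESCs EZH2 RNA was at 11.5, 8.7 and 9.7 RPM, against 68.6, 63.3 and 59.5 RPM in EZH2+/+ ESCs. EZH2-/+ ESCs had 55.4, 52.3 and 45.7 RPM, and EZH2-/-+EZH2 ESCs had 271, 385 and 256 RPM. No 2 genotypes overlap. The ESC markers POU5F1, SOX2 and LIN28A were present in all 12 libraries, at no less than 617, 88.0 and 821 RPM. Of the 27 listed pluripotency genes 16 were called higher and 5 lower in EZH2-/- than in EZH2+/+ ESCs (adjusted p under 0.05 in limma). Against EZH2-/-+EZH2 ESCs, 1 was called higher and 0 lower. The list summed to 6671 to 6930 RPM in EZH2-/- and 4250 to 5219 RPM in EZH2+/+ ESCs. It summed to 5115 to 6703 RPM in EZH2-/+ and 5135 to 6354 RPM in EZH2-/-+EZH2 ESCs. Markers of other lineages also moved with genotype. The 9 endoderm genes summed to 173 to 482 RPM in EZH2-/- and 28.02 to 56.5 RPM in EZH2-/-+EZH2 ESCs. They summed to 25.04 to 51.1 RPM in EZH2+/+ and 16.2 to 464 RPM in EZH2-/+ ESCs. The 12 mesoderm genes summed to 255 to 514 RPM in EZH2-/- against 146 to 244 RPM in EZH2-/-+EZH2 ESCs. Of 6 neuroectoderm genes tested, 1 was called higher and 3 lower in EZH2-/- than in EZH2+/+ ESCs. Of 6 trophoblast and amnion genes tested, 3 were called higher and 0 lower. The part of these markers in the results below was not tested.

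The sequence just before the chosen start sites varied from CpG-rich to CpG-poor, and 6 stretches of 250 bases are shown because the marks below differ along that range. They were read from GRCh38, 5′ to 3′ on the strand of the transcript, and capitals mark CpG. RHOF (chr12:121800678-121800927, minus strand) and ZC3H4 (chr19:47112230-47112479, minus strand) have 39 and 23 CpG in their stretch.
RHOF: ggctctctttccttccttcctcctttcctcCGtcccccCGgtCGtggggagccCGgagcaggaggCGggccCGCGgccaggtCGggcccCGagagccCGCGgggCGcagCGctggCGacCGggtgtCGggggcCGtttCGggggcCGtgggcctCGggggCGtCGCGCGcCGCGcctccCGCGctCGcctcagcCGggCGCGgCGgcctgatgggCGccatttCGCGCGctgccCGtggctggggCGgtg
ZC3H4: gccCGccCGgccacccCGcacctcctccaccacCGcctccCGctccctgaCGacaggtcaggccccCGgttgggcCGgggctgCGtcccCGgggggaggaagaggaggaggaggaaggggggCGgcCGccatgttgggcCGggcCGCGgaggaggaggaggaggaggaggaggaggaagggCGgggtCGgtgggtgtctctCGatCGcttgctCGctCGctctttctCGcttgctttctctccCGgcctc
The other 4 lie at start sites inside the gene body, at ZMYND8 (chr20:47319062-47319311, minus strand), NRP2 (chr2:205763551-205763800, plus strand), MYH9 (chr22:36328953-36329202, minus strand) and PLA2G6 (chr22:38180405-38180654, minus strand), with 12, 7, 4 and 3 CpG.
ZMYND8: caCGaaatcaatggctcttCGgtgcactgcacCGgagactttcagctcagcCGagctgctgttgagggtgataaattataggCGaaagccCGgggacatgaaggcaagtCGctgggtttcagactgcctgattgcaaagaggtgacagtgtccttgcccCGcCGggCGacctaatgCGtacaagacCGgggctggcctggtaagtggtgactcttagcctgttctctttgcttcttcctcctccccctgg
NRP2: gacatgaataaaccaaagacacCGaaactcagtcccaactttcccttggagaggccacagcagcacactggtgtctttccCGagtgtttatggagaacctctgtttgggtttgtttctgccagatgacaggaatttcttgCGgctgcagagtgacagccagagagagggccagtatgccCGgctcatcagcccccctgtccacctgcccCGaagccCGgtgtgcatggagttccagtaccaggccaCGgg
MYH9: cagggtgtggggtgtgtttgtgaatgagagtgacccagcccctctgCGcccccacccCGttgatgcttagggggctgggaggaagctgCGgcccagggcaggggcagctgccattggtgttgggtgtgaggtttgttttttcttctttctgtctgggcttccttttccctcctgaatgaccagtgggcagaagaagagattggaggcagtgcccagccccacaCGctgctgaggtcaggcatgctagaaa
PLA2G6: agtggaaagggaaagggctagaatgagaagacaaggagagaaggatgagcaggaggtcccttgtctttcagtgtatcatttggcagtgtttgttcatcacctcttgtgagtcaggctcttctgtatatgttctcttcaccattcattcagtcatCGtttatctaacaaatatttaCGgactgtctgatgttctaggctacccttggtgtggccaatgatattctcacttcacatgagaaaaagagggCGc

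Over the whole 5 kb window the members had a median of 124 CpG (45 to 308), against 84 for all autosomal promoters. LINC01089, BRD2 and BRD2-IT1 were the richest, with 308, 293 and 276 CpG. RP4-569M23.2, RNF43 and CBX5 were the poorest, with 45, 51 and 57. The GC content of the window had a median of 50.9% in members and 46.9% in all promoters. Short promoter motifs were searched on both strands from 250 bases before to 50 after the chosen start. GGGCGG, the core of the GC box bound by SP factors, was present in 14 of 28 members and 26.3% of all promoters, CCAAT, the NF-Y box, in 8 members and 33.9% of promoters, and TATAAA in 4 members and 15.0% of promoters. CCGGAAG, the ETS motif, occurred in 3 members and 6.06% of promoters. GCATGCGC, TGACGTCA, TTTCCCGC and ACTACAA were in 0 members and in 1.72%, 1.10%, 0.99% and 2.91% of promoters. A match describes the letters and not binding. RefSeq (GRCh38.p14) lists 33 promoters for 19 of the member genes, and 17 of the 33 hold GGGCGG, against 45.0% of all autosomal RefSeq promoters.

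Of the 28 members, 19 belong to protein-coding genes and 9 to lncRNAs of GENCODE release 44. They do not all lie near the 5′ end of the gene. The chosen start was more than 10 kb from the 5′ end of the gene in 8 members, all protein-coding, or 28.6% of members against 18.6% of all promoters. It was within 1 kb in 13 of the 28 members, where 72.0% of all promoters were within 1 kb. Of the 13, 5 are protein-coding. The 8 are NRP2 (81811 bp inside the gene), MYH9 (59066 bp), RNF43 (54003 bp), ZMYND8 (37828 bp), KANSL1 (31495 bp), PLA2G6 (25286 bp), CBX5 (20588 bp) and FAN1 (18410 bp). Distance alone does not tell which promoter is the main one. KANSL1 had 4.44 log2 RPM H3K4me3 at the chosen start and 3.55 at its 5′ end. At PLA2G6 the chosen window had the highest H3K4me3 of the gene (2.92).

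At 4 of the 8 genes the 5′ end had H3K4me3 but far less H3K27ac than the chosen window. MYH9, which encodes non-muscle myosin heavy chain IIA, had 1.02 log2 RPM H3K27ac and 3.66 H3K4me3 at its 5′ end, and 2.52 and 2.65 at the chosen start (chr22:36326452-36331452). NRP2, a receptor for semaphorins and VEGF, had 0.96 log2 RPM H3K27ac and 3.37 H3K4me3 at its 5′ end, and 2.53 and 2.60 at the chosen start (chr2:205761301-205766301), which lies in a coding exon. FAN1, a DNA interstrand crosslink repair nuclease, had 0.83 and 3.44 log2 RPM at its 5′ end and 2.49 and 2.46 at the chosen start (chr15:30919762-30924762), also in a coding exon. RNF43, a ubiquitin ligase that removes Wnt receptors, had 1.36 and 2.65 log2 RPM at its 5′ end and 2.49 and 2.80 at the chosen start (chr17:58361092-58366092), again in a coding exon. The choice of the window with the most H3K27ac fixes the direction for that mark.

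ZMYND8, a chromatin reader with a bromodomain, had both. H3K27ac was at 2.89 log2 RPM at its 5′ end and 2.98 at the internal start (chr20:47316561-47321561), and H3K4me3 at 4.07 and 3.20. Of its 14 windows 12 met all limits, as did 10 of 12 for the lncRNA LINC01089 and 9 of 18 for BRD2, whereas 1 of 27 did for PLA2G6 and 1 of 17 for KANSL1. CBX5, which encodes the heterochromatin protein HP1 alpha, had 2.27 log2 RPM H3K27ac at its 5′ end and 2.51 at the chosen start (chr12:54257045-54262045).

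**Figure D1:**
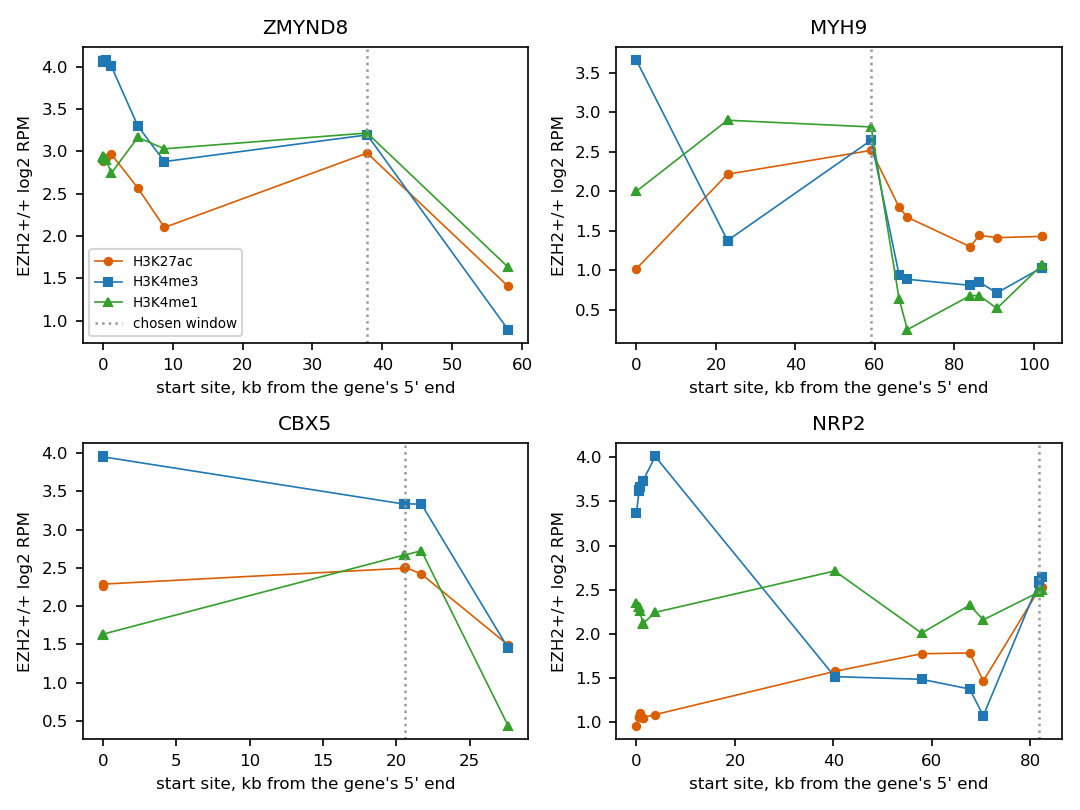
EZH2+/+ log2 RPM of H3K27ac, H3K4me3 and H3K4me1 in each 5 kb window of ZMYND8, MYH9, CBX5 and NRP2, by distance of its start site from the 5′ end of the gene in kb (the dotted line is the chosen window). H3K4me3 is highest near the 5′ end in all 4 genes, while the chosen window lies 20588 to 81811 bp downstream.

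H3K27ac of the members in EZH2+/+ ESCs ranged from 2.43 to 2.98 log2 RPM, with a median of 2.52, and all promoters had a median of 1.22. These values chose the members. The highest were RP4-569M23.5 and ZMYND8 (both 2.98, overlapping windows), BRD2 (2.66), BRD2-IT1 (2.62), LINC01089 (2.58) and RP4-569M23.2 (2.58). BRD2 encodes a BET protein that binds acetylated histones, and BRD2-IT1 is a lncRNA inside it. With 65.3 to 95.8 reads per library in a window in EZH2+/+ ESCs, counting alone gives a standard error of 0.10 to 0.13 log2. The lowest members were PLA2G6 (2.43), RP11-771K4.1 (2.45) and SRSF3 (2.46), and HLA-DMA (2.42), GPRC5B (2.41) and NBR1 (2.40) lay just under the limit, within that error. MYADM, C1orf86 and RP11-181G12.4 were left out by H3K27me3 of 1.07, 1.10 and 1.18, next to NRP2 (0.76), AC007362.3 (0.74) and CMB9-22P13.2 (0.72) inside. ZNF423, TYRO3 and COQ7 were left out by H3K4me3 of 2.33, 2.21 and 2.17, next to FAN1 (2.46), NRP2 (2.60) and AC007362.3 (2.62) inside. The members with most input were KANSL1 (1.21), KANSL1-AS1 (1.17) and FAN1 (0.90).

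The rule fixes H3K27ac above input at every member. H3K27me3 was above input at 12 members in EZH2+/+ ESCs, 7 in EZH2-/+ ESCs, 5 in EZH2-/- ESCs and 2 with the transgene on. RNA was not used by the rule. CMB9-22P13.2 (LINC02736 in GENCODE release 44) was under the value of 3 reads, which is 0.0528 to 0.120 RPM, in all 12 RNA libraries. Of the 28 genes 24 reached a mean of 1 RPM and 19 a mean of 10 RPM.

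The count of promoters within the limits depended on the genotype to which they were applied. With each genotype's own columns and its own best window, 28 promoters passed for EZH2+/+ ESCs, 229 for EZH2-/+, 1376 for EZH2-/- and 924 for EZH2-/-+EZH2. The 99th percentile of H3K27ac was 2.18, 2.40, 2.81 and 2.74 log2 RPM in that order, so the EZH2+/+ column reached the lowest values at its upper end. The cause was not tested. Of the 28 members 17 passed all limits in the same window in each of the 4 genotypes.

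H3K4me1 and EZH2 were not used to choose the members. H3K4me1 in EZH2+/+ ESCs had a median of 2.38 log2 RPM in members (quartiles 1.68 to 2.84) and 1.33 in all promoters. Of the members 15 were in the highest 10% of all promoters. A group of 2647 promoters with both H3K4me3 and H3K27me3 above 2.42 had a median of 1.92. H3K4me1 was above H3K4me3 at 5 members: CMB9-22P13.2 (3.48 against 3.24), FAN1 (2.75 against 2.46), MYH9 (2.81 against 2.65), RNF43 (2.92 against 2.80) and ZMYND8 (3.22 against 3.20). EZH2+/+ H3K4me3 had only 3.43 M reads per library, and in these ESCs none of the 5 differences is clearly beyond counting error. At 4 of the 5, all but ZMYND8, H3K4me1 was above H3K4me3 in all 4 genotypes (not counted over all promoters). H3K4me1 was highest at CMB9-22P13.2 and lowest at BRD2 (0.86).

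EZH2 had a median of -0.67 log2 RPM in members, -2.15 in all promoters and 0.04 in promoters with both H3K4me3 and H3K27me3. It was above the median of all promoters at 27 members, and in their highest 10% (above -0.37) at 12. The 6 highest members were KANSL1-AS1 (1.14), KANSL1 (1.12), SRSF3 (0.82), H3F3B (0.70), UNK (0.65) and ZFP36L1 (0.57), and FAN1 was lowest (-2.37). EZH2 was profiled from crosslinked chromatin, with no input of that kind used here.

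Members with more CpG had more H3K4me3 (Pearson's r 0.77, n = 28) and more EZH2 (r 0.75), and less H3K4me1 (r -0.87). Over all 34448 promoters the first 2 relations had the same sign (0.72 and 0.64), and that of CpG with H3K4me1 was opposite in sign (0.37). Members were chosen with H3K4me3 above 2.42 log2 RPM, where all promoters had a median of 1.22. Whether that choice by itself changes the sign was not tested. EZH2 and H3K4me3 had an r of 0.87 over the members and 0.69 over all promoters. EZH2 and H3K27me3 had an r of 0.16 over the members and 0.41 over all promoters. The rule keeps H3K27me3 of members under 1 log2 RPM, where all promoters reach 6.30, and so narrow a range can by itself lower r. With 1 member for each of the 21 loci, the r of CpG with H3K4me1 was -0.87 and that of EZH2 with H3K4me3 was 0.87. The points share libraries and base composition, so these values are descriptions.

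**Figure D2:**
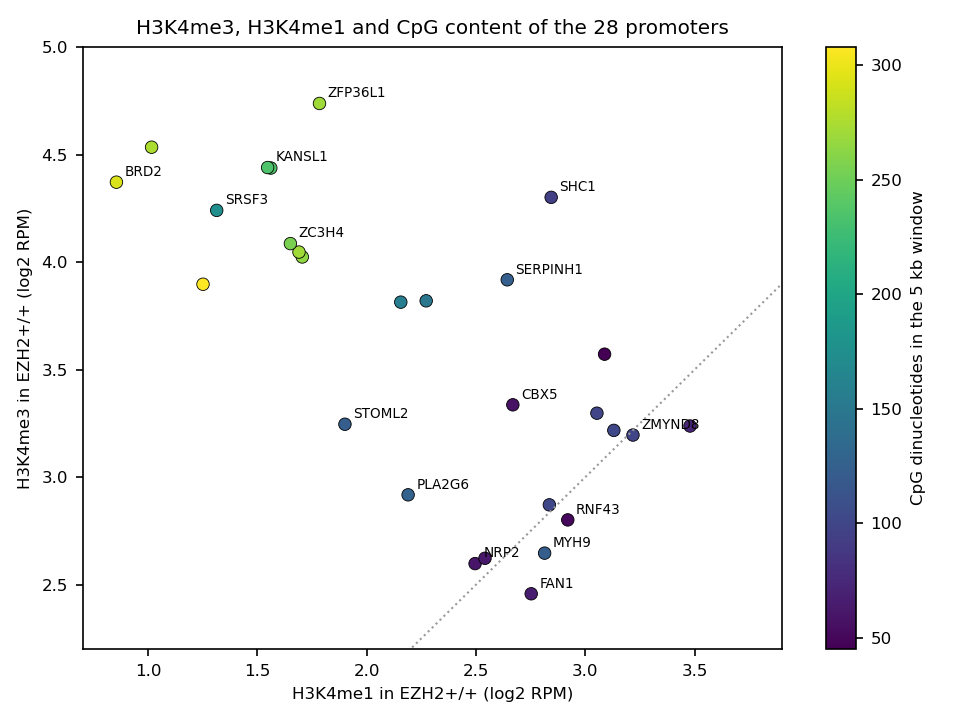
H3K4me3 against H3K4me1 in EZH2+/+ ESCs (both log2 RPM) for the 28 members, coloured by the number of CpG in the 5 kb window (dotted line: equal values). CpG-rich members such as BRD2 (293 CpG) lie at low H3K4me1 and high H3K4me3, and CpG-poor members such as FAN1 (66 CpG) lie near the line.

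To ask how the promoters respond to EZH2, EZH2-/- ESCs were set against EZH2-/-+EZH2 ESCs, a comparison free of the EZH2+/+ values that chose the members. H3K27ac was lower in EZH2-/- ESCs at 23 of 28 members, where 43.7% of all promoters were lower. The median difference was -0.21 on the log2(RPM + 0.1) scale (quartiles -0.39 to -0.09), against 0.07 in all promoters. At 8 members the fall exceeded 2 counting standard errors (28.6%), as it did at 7.42% of all promoters, each judged by its own error. At 0 members did a rise exceed 2 such errors (16.5% of all promoters). Members hold more reads (median 7.63 RPM H3K27ac in EZH2-/- ESCs, against 2.58 in all promoters). Their errors are therefore smaller, and these shares do not compare falls of equal size. Of the 8 members that fell, RHOF, RP11-347I19.7 and LINC01089 share 1 locus and ZMYND8 and RP4-569M23.5 another. Counting error leaves out the spread between samples. At the 178 other promoters that pass the same limits in EZH2-/+ ESCs the median was -0.12, with 69.7% lower, and at the 2647 promoters with both H3K4me3 and H3K27me3 it was 0.65, with 7.25% lower. Relative to EZH2-/+ ESCs the direction differed. H3K27ac in EZH2-/- ESCs had a median difference of 0.26 and was higher at 20 of 28 members, where 60.4% of all promoters were higher with a median of 0.12. The 8 members lower than in EZH2-/+ ESCs were SRSF3, CBX5, FAN1, KANSL1, KANSL1-AS1, ZMYND8, RP4-569M23.5 and RP4-569M23.2.

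The largest differences were at the ZMYND8 locus. ZMYND8 had 2.98 log2 RPM H3K27ac in EZH2+/+ ESCs and 3.24 in EZH2-/+ ESCs. With both alleles targeted it had 3.20 without and 3.895 with the transgene on, a difference of -0.69 (counting SE 0.13). EZH2-/-+EZH2 ESCs stood above the other 3. RP4-569M23.5, a lncRNA whose window overlaps it, differed by -0.59. RP4-569M23.2, near the 5′ end of the same gene, differed by -0.55 and CBX5 by -0.54 (counting SE 0.17 for each). LINC01089 and RP11-347I19.7, which share 1 locus with RHOF, a small GTPase, differed by -0.43 and -0.42.

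The largest rises were small. They were 0.15 at RNF43, 0.11 at AC007362.3, 0.10 at NRP2, 0.07 at UNK (an RNA-binding zinc finger protein) and 0.02 at SERPINH1, none above its counting SE of 0.14 to 0.19, and only 5 members were higher at all. RNF43 was the 1 member whose H3K27ac was highest in EZH2+/+ ESCs, at 2.49 log2 RPM. It had 1.84 in EZH2-/+ ESCs, 2.28 without and 2.12 with the transgene on. BRD2 had 2.66, 2.87, 3.70 and 3.79 log2 RPM in the same genotype order, so both lines without an intact EZH2 allele were above the other 2. H3K27ac was highest in EZH2-/-+EZH2 ESCs at 23 members and lowest in EZH2+/+ ESCs, whose values chose them, at 19. Neither count was made over all promoters. H3K27ac was higher in EZH2-/-+EZH2 than in EZH2-/+ ESCs at 26 of 28 members and at 53.9% of all promoters. At the 178 other promoters within the limits in EZH2-/+ ESCs it was higher at 88.8%, so this order is not particular to the members.

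**Figure D3:**
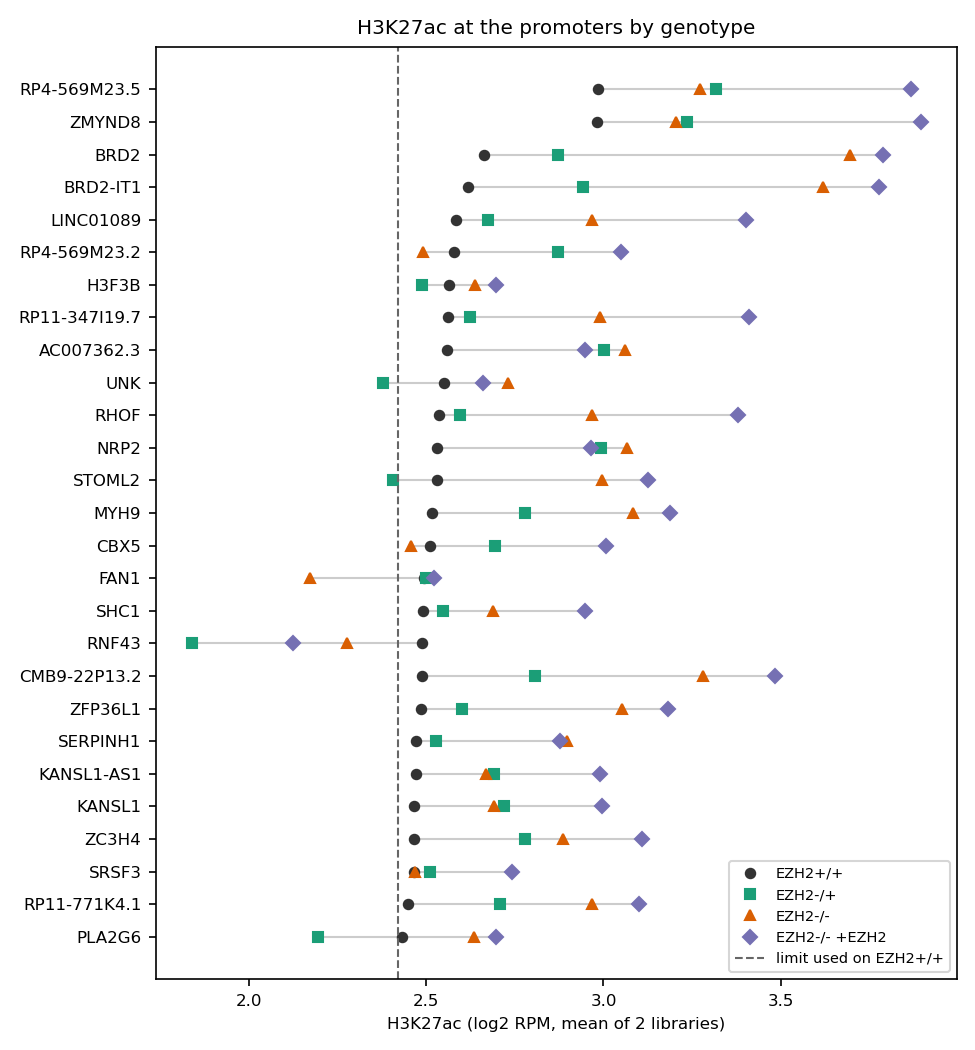
H3K27ac (log2 RPM, the mean of 2 libraries) at 27 of the 28 members in the 4 genotypes, ordered by the EZH2+/+ value (dashed line: the limit of 2.42). The EZH2-/-+EZH2 value is the highest at 22 of the 27 (not counted over all promoters), and RNF43 lies below the limit in the other 3 genotypes.

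H3K4me3 had a median difference of 0.10 between EZH2-/- and EZH2-/-+EZH2 ESCs and was higher at 16 of 28 members, where 54.5% of all promoters were higher. It differed most at RP11-771K4.1 (0.44), KANSL1 (0.37) and KANSL1-AS1 (0.36). H3K4me1 had a median of 0.23 and was higher at 24 of 28 members, with 59.4% of all promoters higher and a median of 0.07 over them. At the 178 other promoters within the limits in EZH2-/+ ESCs it was higher at 90.45%, with a median of 0.20. At the 2647 promoters with both H3K4me3 and H3K27me3 it was higher at 92.63%, with a median of 0.33. The H3K4me1 difference is therefore not particular to the members. Input had a median of -0.02.

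H3K27me3 differed less at these promoters than over all promoters. Its median difference was 0.06 in members and -0.41 in all promoters, and -3.46 in the promoters with both marks. It was higher at 16 of 28 members, where 29.5% of all promoters were higher. Members were chosen with little H3K27me3 in EZH2+/+ ESCs, so little could be lost. CMB9-22P13.2 was lower in EZH2-/- ESCs by the largest margin (-1.13 against 0.30 log2 RPM). ZC3H4, a zinc finger protein that restrains noncoding transcription, was higher by the largest margin (0.96 against -0.61). BRD2 had 0.21 log2 RPM in EZH2+/+ ESCs, 0.93 in EZH2-/+ ESCs, 1.41 without and 0.78 with the transgene on. These values are scaled to the size of the library, and the study reports H3K27me3 at background levels in EZH2-/- ESCs. Higher values in EZH2-/- ESCs therefore cannot by themselves be read as gained methylation.

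**Figure D4:**
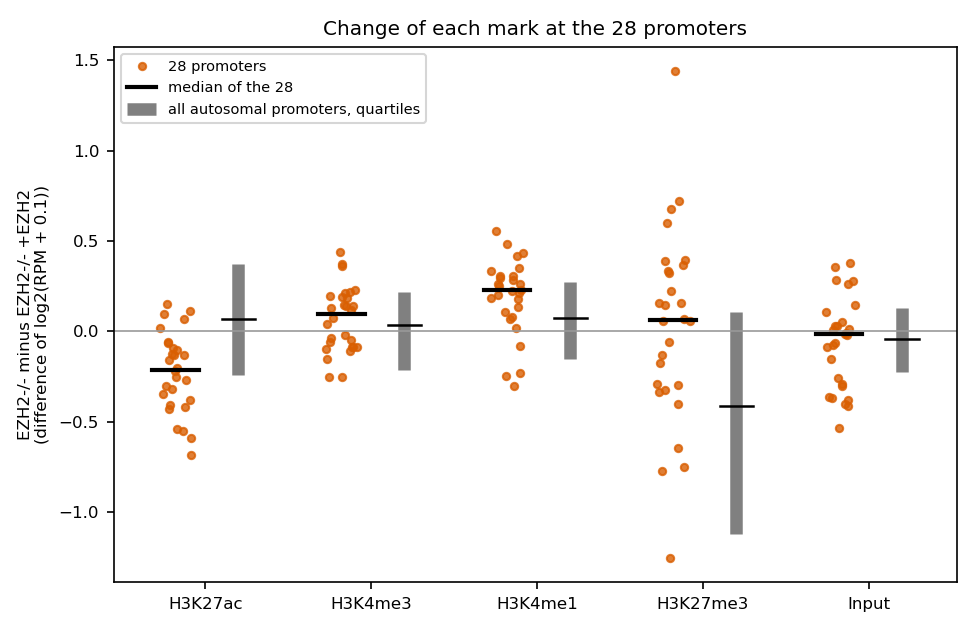
Difference of log2(RPM + 0.1) between EZH2-/- and EZH2-/-+EZH2 ESCs for each mark and input at the 28 members (points, with the median as a bar), beside the median and quartiles of all 34448 autosomal promoters (grey). The members' median is -0.21 for H3K27ac against 0.07 for all promoters.

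RNA was tested with limma across all 20689 genes that averaged 0.1 RPM or more, which 26 of the 28 member genes reached (CMB9-22P13.2 and RP4-569M23.2 did not). Between EZH2-/- and EZH2-/-+EZH2 ESCs 0 members were called higher and 0 lower at a Benjamini-Hochberg adjusted p under 0.05 by limma, where 2.84% and 0.556% of all genes were called. At an unadjusted p under 0.05, 2 were higher and 1 was lower. The median log2 difference was 0.07 in members and 0.02 in all genes. With the library number as a block, which pairs the libraries, 1 member was called higher and 1 lower.

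These 2 were RP11-771K4.1 and CBX5. CBX5 RNA was at 129, 102 and 77.4 RPM in EZH2-/- and 148, 162 and 156 RPM in EZH2-/-+EZH2 ESCs, with 206, 176 and 228 RPM in EZH2-/+ and 297, 260 and 201 RPM in EZH2+/+ ESCs. The EZH2-/- libraries lie below all others. The log2 difference from EZH2-/-+EZH2 ESCs was -0.63 (SE 0.19, adjusted p = 0.105 in limma, and 0.0372 with the block, 0.0391 without EZH2-/- library 1). RP11-771K4.1, a lncRNA named LINC02387 in GENCODE, was at 1.39, 1.91 and 1.87 RPM in EZH2-/- and 0.72, 0.62 and 1.28 RPM in EZH2-/-+EZH2 ESCs, without overlap (log2 difference 0.96, SE 0.29, adjusted p = 0.103 in limma, and 0.0464 with the block).

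Relative to EZH2+/+ ESCs, 10 of 26 members were called lower in EZH2-/- ESCs (38.5%, where 18.9% of all genes were called lower) and 1 was called higher (3.85%, against 12.8%). The 11 called members come from 9 of the 19 loci tested. The median log2 difference was -0.37 in members and -0.13 in all genes. The count of members called lower fell to 6 without EZH2+/+ library 1, without EZH2-/- library 1 or without EZH2-/- library 2. Among members whose window overlaps no other, 3 of 13 were called lower.

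NRP2 fell most. It was at 193, 104 and 145 RPM in EZH2+/+ and 82.7, 54.0 and 179 RPM in EZH2-/+ ESCs. In EZH2-/- ESCs it was at 29.3, 83.7 and 42.9 RPM, and with the transgene on at 27.5, 27.4 and 33.9 RPM. EZH2-/- and EZH2+/+ libraries do not overlap, and EZH2-/- library 2 is the highest of its group (log2 difference -1.59, SE 0.42, adjusted p = 0.0128 in limma, 0.0515 without EZH2+/+ library 1 and 0.0540 without EZH2-/- library 1). AC007362.3, a lncRNA antisense to NRP2, fell by 1.46 on the log2 scale (adjusted p = 0.0140 in limma, and 0.0605, 0.0544 and 0.0526 without EZH2+/+ library 1, EZH2-/- library 1 and EZH2-/- library 3). The reads were counted without strand, so reads from the 2 genes cannot be told apart where they overlap.

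PLA2G6, a calcium-independent phospholipase, was at 13.1, 19.3 and 14.6 RPM in EZH2+/+ and 5.65, 5.12 and 5.58 RPM in EZH2-/- ESCs, again without overlap (log2 difference -1.49, SE 0.29, adjusted p = 0.0024 in limma). EZH2-/-+EZH2 libraries lay between, at 7.53, 7.29 and 8.83 RPM. CBX5 fell by 1.31 on the log2 scale (SE 0.19, adjusted p = 0.00043 in limma), and kept an adjusted p under 0.05 with each library left out. RNF43 was at 9.57, 19.7 and 10.3 RPM in EZH2+/+ and 4.13, 6.21 and 8.67 RPM in EZH2-/- ESCs (log2 difference -1.03, adjusted p = 0.0428 in limma, and 0.188 without EZH2+/+ library 2, the highest). The call of RNF43 was also lost without EZH2+/+ library 3 or EZH2-/- library 1 or 2 (adjusted p = 0.0539, 0.157 and 0.0973 in limma), and with RPM rescaled between libraries (0.0748.

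ZMYND8 was at 142, 140 and 112 RPM in EZH2+/+ and 95.5, 86.6 and 69.6 RPM in EZH2-/- ESCs (log2 difference -0.65, SE 0.17, adjusted p = 0.0125 in limma, and 0.0519 without EZH2+/+ library 2). KANSL1, a subunit of the NSL acetyltransferase complex, was at 45.8, 42.9 and 41.7 RPM in EZH2+/+ and 31.6, 27.6 and 28.3 RPM in EZH2-/- ESCs (log2 difference -0.58, adjusted p = 0.0142 in limma, 0.0511 without EZH2+/+ library 1 and 0.0571 without EZH2-/- library 2). Its antisense RNA KANSL1-AS1 differed by -0.68 (adjusted p = 0.115 in limma), which did not pass. BRD2 RNA was at 171, 140 and 148 RPM in EZH2+/+ and 159, 151 and 147 RPM in EZH2-/- ESCs (SE 0.13 of the log2 difference, adjusted p = 0.997 in limma).

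The other members called lower were RP11-347I19.7 (log2 difference -1.005), LINC01089 (-0.73, adjusted p = 0.0119 in limma and 0.0502 without EZH2-/- library 2) and UNK (-0.53). The first 2 share a locus with RHOF, which differed by -0.08 (adjusted p = 0.761 in limma). LINC01089 was at 16.9, 17.9 and 20.5 RPM in EZH2+/+ and 13.4, 10.3 and 9.74 RPM in EZH2-/- ESCs, and the 3 genes overlap without strand in the counts. UNK shares its locus with H3F3B, the gene for histone H3.3, which differed by -0.05 (adjusted p = 0.869 in limma). The call of UNK (adjusted p = 0.0250 in limma) was lost with RPM rescaled between libraries (0.0547), and on leaving out any library of the 2 genotypes except EZH2-/- library 3, with adjusted p up to 0.120.

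SERPINH1, a collagen chaperone, was the 1 member called higher. It was at 263, 271 and 274 RPM in EZH2+/+ and 336, 417 and 374 RPM in EZH2-/- ESCs, without overlap (log2 difference 0.48, SE 0.15, adjusted p = 0.0333 in limma). The call was lost on leaving out any library of the 2 genotypes except EZH2-/- library 1, with adjusted p up to 0.132 in limma. EZH2-/-+EZH2 ESCs had 354, 297 and 281 RPM.

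**Figure D5:**
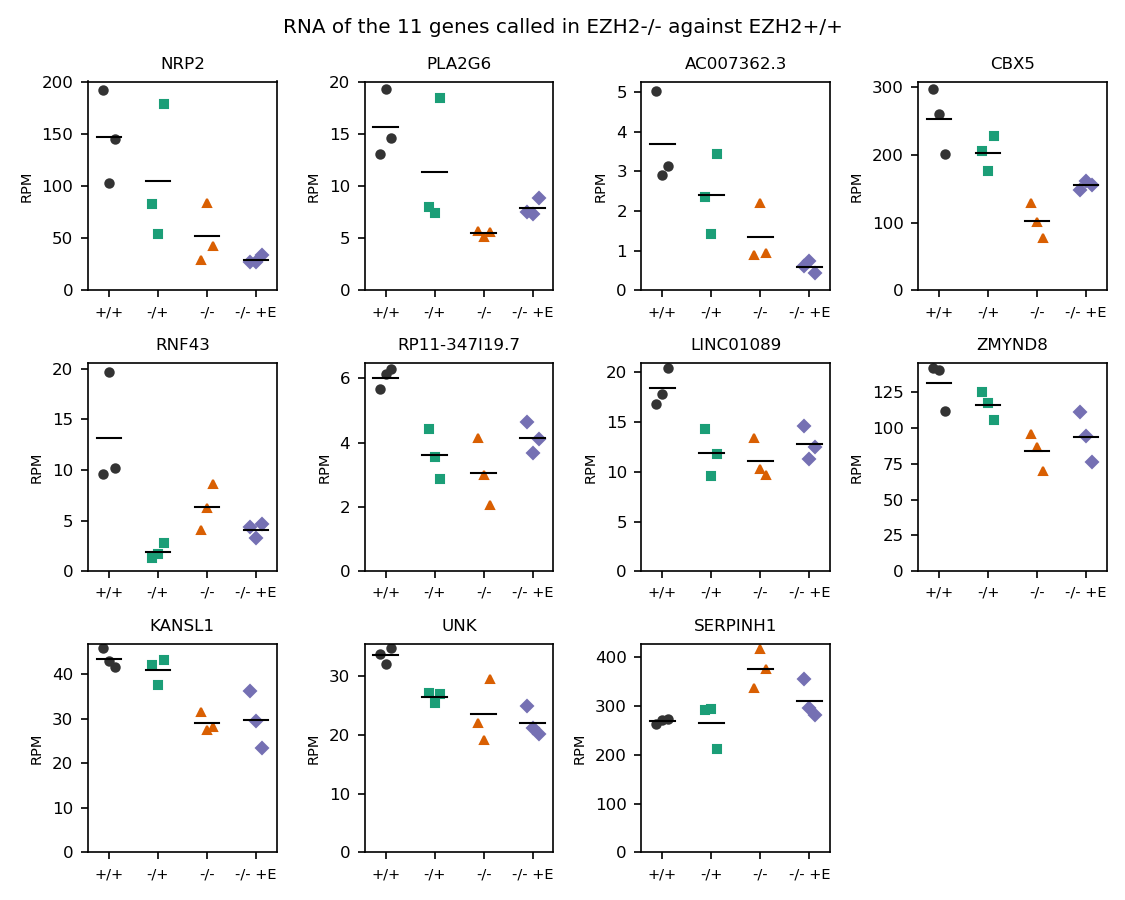
RNA level (RPM, 1 point per library, bar at the mean of 3) of the 11 members called in EZH2-/- against EZH2+/+ ESCs, in EZH2+/+, EZH2-/+ and EZH2-/- ESCs and with the transgene on (-/- +E). For 10 genes the EZH2-/- libraries lie below the EZH2+/+ libraries, and for SERPINH1 they are higher.

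The other comparisons use the same 3 EZH2+/+ libraries, so their values are given side by side only. In EZH2-/+ ESCs 1 of 26 members was called lower (0.986% of all genes) and 0 higher (0.179%; 0 members at an unadjusted p under 0.05). That member was RNF43, at 1.30, 1.75 and 2.83 RPM in EZH2-/+ ESCs (log2 difference -2.68, SE 0.35, adjusted p = 0.0034 in limma), below all libraries of the other genotypes. In EZH2-/-+EZH2 ESCs 6 members were called lower (6.85% of all genes) and 0 higher (3.35%; 0 members at an unadjusted p under 0.05 by limma). They were AC007362.3 (-2.42), NRP2 (-2.27), RNF43 (-1.59), CBX5 (-0.68), UNK (-0.61) and KANSL1 (-0.56), as log2 differences from EZH2+/+ ESCs.

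The 15 members that were tested and not called in EZH2-/- against EZH2+/+ ESCs included abundant RNAs. Per kilobase of exon, the highest member RNA levels in EZH2+/+ ESCs were STOML2, a mitochondrial membrane protein (63.9 RPM per kb), H3F3B (63.3), SERPINH1 (42.9), SRSF3, a splicing factor (33.1), and SHC1, an adaptor of receptor tyrosine kinases (27.3). STOML2 and H3F3B differ by less than the spread of the H3F3B libraries. SRSF3 differed by 0.19 (SE 0.23, adjusted p = 0.556 in limma) between EZH2-/- and EZH2+/+ ESCs, and 1 of 49 spliceosome genes was called higher and 1 lower. Of 31 acetyltransferases, bromodomain readers and deacetylases, which include BRD2, 1 was called higher and 7 lower. ZFP36L1, which destabilizes AU-rich mRNAs, differed by -0.21 (adjusted p = 0.186), MYH9 by 0.30 (0.390), SHC1 by 0.26 (0.365), ZC3H4 by 0.38 (0.561) and FAN1 by -0.25 (0.254), all in limma.

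A difference in acetylation was not matched by one in RNA at each member. ZMYND8 had less H3K27ac in EZH2-/- than in EZH2-/-+EZH2 ESCs (-0.69), while its RNA differed by -0.15 (adjusted p = 0.697 in limma). At CBX5 both differences were negative, at -0.54 for H3K27ac and -0.63 for RNA (adjusted p = 0.105 in limma). NRP2 had an H3K27ac difference of 0.10 (counting SE 0.14) and an RNA difference of 0.68 (SE 0.42, adjusted p = 0.455 in limma). The H3K27ac values of ZMYND8, NRP2 and CBX5 belong to internal windows, whereas RNA is counted over the whole gene.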

How the data were processed

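RNA-seq (4 genotypes, 3 libraries each) and ChIP-seq of flow-sorted H9 ESCs were used. Per the methods, the authors trimmed reads with Trim Galore 0.4.0, aligned RNA with TopHat2 2.0.12 and ChIP reads with Bowtie2 2.2.5 to GRCh38, extended ChIP reads, and counted RNA reads per gene without strand and de-duplicated ChIP reads per 5 kb window centred on a start site. The authors deposited log2 RPM for both, with 0 reads as 0.9 of 1 read. The low ChIP values (100% of them, within 0.01 in the product of the counts) lie on the steps that 2 libraries per histone or input column give, as the labels list, whereas the study's text gives 3. They place ChIP columns at 3.43 to 23.8 M reads per library, from which counting standard errors were taken (counting error only). EZH2+/+ H3K4me3 is the shallowest.

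Members and gene lists were chosen with earlier results of these data known. Differences are of log2(RPM + 0.1), which shrinks those of low genes. RNA was fitted with limma 3.58.1 (lmFit, eBayes with trend) in R 4.3.3 over all 12 libraries and tested on simulated data, with a Benjamini-Hochberg adjusted p under 0.05 called. The authors used DESeq2 on raw counts, not used here. The study calls the RNA libraries biological replicates of each line, so p measures the spread within these lines. Libraries with the same number deviated together (r over 0.1 in 18 of 18 pairs, mean 0.34, against -0.16 for other pairs). The number was used as a pairing block in an alternative fit only. The main calls and adjusted p leave this pairing out. Named genes were the 8 largest called rises and falls averaging 1 RPM or more without overlap between groups, members found in a gene list (other list genes are given as counts), the 6 members with most H3K27ac or EZH2 or the largest H3K27ac change, and promoters nearest each limit. Others named were chosen after their values were seen. Windows were annotated with GENCODE release 44, and sequences were read from GRCh38 around the chosen start and, as planned, from RefSeq promoters (GRCh38.p14). The printed stretches were chosen after their values were seen and hold no annotated UTR. The gene of 1 member is not reported here by name.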

Additional observations from a re-analysis of the deposited data

How the results depend on the processing

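The 10 members called lower in EZH2-/- against EZH2+/+ ESCs became 8 to 11 under the other scaling, pseudocount, filters, sample choice and block, 6 to 9 with single libraries left out, and 3 for the 13 tested members that overlap no other. The 1 called higher became 2 with the replicate block, 2 with a pseudocount of 1 RPM, 0 without a filter on low values, and 0 to 1 with single libraries left out. Against EZH2-/-+EZH2 ESCs the block gave 1 higher and 1 lower in place of 0 and 0, and leaving out single libraries gave 0 to 1 lower and 0 to 0 higher. Beyond these 2 calls the pairing added 1 lower call and 1 higher call, that of RP11-771K4.1, against EZH2+/+ ESCs and changed no other call. Over the member genes in both comparisons and all alternatives a call was lost 27 times, gained 6 times and reversed 0 times. The median H3K27me3 difference moved to 0.48 when centred on all promoters, by construction. Raising both limits by 1 log2 left 0 members, so it gave no value. The motif stretch around the chosen start was added after seeing the data. H3K27ac windows of members held 39.2 to 112.9 reads per library in EZH2-/- and 90.5 to 308.8 in EZH2-/-+EZH2 ESCs, and the spread between ChIP libraries is unknown.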
